A study of Mus musculus with 6 samples.

Results

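Minor strand miRNA assays were the 109 wells, of 750 miRNA assays in the deposited table, whose miRNA name ended in # or * once any trailing assay number was dropped. Names beginning miR-297, miR-466, miR-467 or miR-669 were set aside, which left out 2 further assays (miR-297a# and miR-467e#). The 109 assays carried 106 distinct miRNA names, 61 with the mouse prefix mmu, 34 with the human prefix hsa and 14 with the rat prefix rno, and 106 of them had an assay of the other, major strand of the same hairpin in the table. RNA came from the right lung of mice at day 7 of life. In the hyperoxia group (3 samples) the pups had breathed 95% oxygen for 7 days from an age under 12 h, and in the room air group (3 samples) they stayed in room air for the same time. Nursing dams were exchanged daily between both atmospheres, the pulmonary artery was flushed with PBS before the lung was frozen, and neither strain, genotype nor sex is stated in the labels. No transgene or drug was named.

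A miRNA hairpin is cut by Dicer into a short duplex of 2 strands. One strand, the guide or major strand, is usually loaded into an Argonaute protein and kept, while its partner, the passenger or minor strand (marked # or *), is usually degraded. Both strands of a hairpin come from 1 precursor, so their ratio in that hairpin depends on later steps, such as loading, trimming and turnover. Some hairpins share a major strand with another copy, as those of miR-24, miR-29b and miR-218 do. An assay of that strand reads all copies, so the measured ratio also depends on how much of each precursor is made. A loaded strand recognises its messenger RNAs mainly through its seed, bases 2 to 8, and the strands of a hairpin therefore address different messengers.

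The sequences below belong to the hairpins on which the values turn. They are mouse sequences from RefSeq (GRCm38.p6), also where the assay carries a human or rat prefix, are written 5′ to 3′, and have the seed in capitals. The first 3 hairpins hold the minor strands with the smallest unadjusted p-values apart from miR-145#, and miR-322 is a hairpin whose minor strand was read earlier than its major strand. The minor strands of miR-25 (chr5:138165370-138165391, minus strand), miR-21a (chr11:86584082-86584103, minus strand), miR-300 (chr12:109724318-109724339, plus strand) and miR-322 (chrX:53054269-53054289, minus strand) are given with their major strands.
miR-25-5p, minor: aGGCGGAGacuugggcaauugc
miR-25-3p, major: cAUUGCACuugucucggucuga
miR-21a-3p, minor: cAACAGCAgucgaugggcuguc
miR-21a-5p, major: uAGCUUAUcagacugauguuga
miR-300-5p, minor: uUGAAGAGagguuauccuuugu
miR-300-3p, major: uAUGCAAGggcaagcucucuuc
miR-322-3p, minor: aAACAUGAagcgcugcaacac
miR-322-5p, major: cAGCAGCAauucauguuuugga

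Minor strands of related hairpins can share a seed as major strands do, which the next set shows. Both genomic copies of the miR-24 hairpin give the same major strand and 2 minor strands that differ outside their common seed UGCCUAC, and 3 let-7 hairpins share the minor strand seed UAUACAA.
miR-24-2-5p, minor: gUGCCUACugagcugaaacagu
miR-24-1-5p, minor: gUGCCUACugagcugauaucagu
miR-24-3p, major of both: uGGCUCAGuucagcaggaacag
let-7a-1-3p, minor: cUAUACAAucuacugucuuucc
let-7b-3p, minor: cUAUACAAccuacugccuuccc
let-7f-1-3p, minor: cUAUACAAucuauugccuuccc

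Sequences on a single chromosome were left out before counting, and miR-145# has no sequence here. With that cut, RefSeq gave a minor strand sequence for 93 of the 109 assays, 90 of them distinct. These started with U in 12 of 90 sequences (13.3%) and with C in 35 (38.9%), whereas 48 of 87 distinct major strands (55.2%) started with U and 10 (11.5%) with C. The minor strand came from the 5p arm in 34 hairpins and from the 3p arm in 56. In 0 hairpins did both strands carry the same seed. The 90 minor strands had 82 seeds, of which 7 were shared, covering 15 sequences, while the 87 major strands had 61 seeds, of which 12 were shared, covering 38 sequences. The shared minor strand seeds joined miR-99a with miR-99b, miR-200a with miR-200b, miR-379 with miR-411, miR-17 with miR-20b and miR-302b with miR-302c, beside the miR-24 and let-7 sets printed above.

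All 109 minor strand assays were on the second of 2 cards of 384 wells. Each value is a Ct, the number of PCR cycles needed to reach a set fluorescence, and falls as the amount of RNA grows. A Ct under 35 was taken as detected, and 40 marks a well without amplification. On the second card, room air 1 and hyperoxia 2 held the same readings: the 109 Ct values were identical, including 93 of 93 that amplified. Over all miRNA assays of that card 308 of 309 amplified values were identical, against 0 of 312 on the first card. The labels do not say to which sample the readings belong, so they were left out of both, and minor strands were compared in room air 2 and 3 against hyperoxia 1 and 3. The left-out value is called the shared reading. Assays of the major strand, most of them on the first card, had 3 samples per group. The labels do not say that the samples came from separate animals, so every p-value speaks only of the spread among the samples at hand, part of which may be technical.

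In hyperoxia 3, row G of the second card was scattered. Its 19 detected wells lay a median of 2.18 cycles from the other samples, and 8 of them by more than 3 cycles, where all other rows and samples had medians of 0.272 to 1.59 cycles. In hyperoxia 1, row P, which holds miR-21#, had 6 of 15 wells off by more than 3 cycles, at a median of 1.33. Row K, which holds miR-25#, had medians of 1.28 to 1.59 in the samples used. The readings of rows P and K are used below without a mark. Wells F46 to G45 held 17 minor strand assays, 10 of them tested, and gave readings such as a Ct of 5.08 for miR-17# and 8.94 for miR-193#. The 10 tested were miR-10b#, miR-17#, miR-28#, miR-34c#, miR-186#, miR-193#, miR-203#, miR-463#, miR-872# and miR-877#, and their hyperoxia 3 values are called scattered readings, whether or not they lie far from the other samples. The second card's names were used as listed: its 105 names that carry an assay number match the number listed 3 wells later, and no minor strand name carries a number, so the identity of single minor strand assays rests on the name column alone. With names as listed, the control RNAs differed between the cards by a median of 0.72 cycles, and with names taken by number by 6.96.

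**Figure D1:**
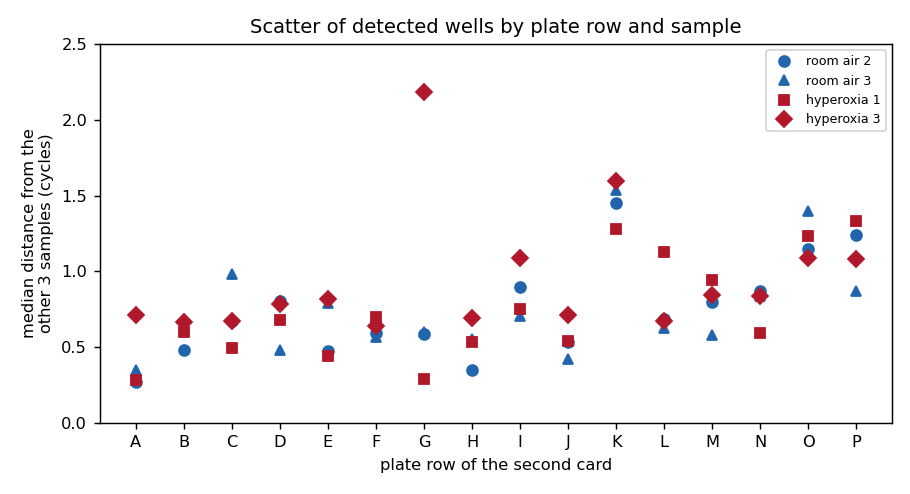
Median distance in cycles of a sample's detected second-card wells from the other 3 samples, by plate row (A to P), for room air 2 and 3 (blue) and hyperoxia 1 and 3 (red). Hyperoxia 3 stands at 2.18 cycles in row G, above the highest other value of 1.59.

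The lung labels were checked on major strands. The endothelial miR-126-3p had Ct values of 11.3 to 13.6 and the epithelial miR-200c of 16.2 to 17.6 on the first card. The neural miR-124 was at 40 in room air 2 and 3 and at 28.5 to 31.4 in the other 4 samples. Other markers of tissues outside the lung were detected in every sample on that card. The neural miR-9 was read at 25.5 to 26.6 and the liver miR-122 at 24.95 to 30.37. Of the heart and skeletal muscle markers, miR-133a was read at 18.1 to 21.2 and miR-208b at 30.6 to 32.9. The readings of miR-499 lay far apart, at 11.81 in room air 1 and 17.63 in hyperoxia 2, against 29.88 to 34.04 in the remaining samples. Room air 1 and hyperoxia 2 are also the samples of the shared reading, and the cause of these low values was not tested. On the second card, miR-206 was read at 23.95 to 25.99 in the samples used. Markers of other tissues were thus not absent.

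Most minor strands were detectable in the newborn lung. Room air 2 and 3 detected 89 and 95 of the 109 assays, and hyperoxia 1 and 3 detected 92 and 86. In all 4 samples 81 assays (74.3%) were detected, 20 in 1 to 3 samples and 8 in none. Of the 264 other miRNA assays of that card, 63.3% were detected in all 4. The room air mean Ct of the 81 ran from 18.6 to 34.2 with a median of 25.7, beside a median of 25.3 for the other assays. The 8 without a detected value in these samples were miR-124#, miR-1#, miR-302a#, miR-302b#, miR-294#, miR-488#, miR-742# and rno-miR-20a#. Several of these hairpins are known from other tissues, miR-124 from neurons, miR-1 from striated muscle, and miR-302 and miR-294 from pluripotent cells. Some of their major strands were nevertheless read, miR-1 at 23.2 to 25.7, miR-302a at 19.0 to 34.9 and the first-card miR-294 at 28.5 to 31.9. The major strand miR-742 and the rat assay of miR-294 were at 40 in every sample. Why the minor strands lacked a signal was not tested.

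The lowest room air Ct values belonged to 10 minor strands, miR-881#, miR-322#, miR-24-2#, miR-93#, rno-miR-7#, miR-674#, miR-872#, miR-877#, miR-106b# and miR-214#. miR-881#, from a hairpin known from testis, had Ct values of 19.0 and 18.1 in room air, against 19.3 and 19.0 in hyperoxia. miR-322#, the partner of a miR-15 family miRNA from a hairpin on the X chromosome, had 19.3 and 18.9 in room air, against 19.4 and 19.6 in hyperoxia. miR-24-2# had 20.1 and 19.6 in room air, against 19.1 and 19.6 in hyperoxia. The room air values of miR-881# overlapped those of miR-322#, and those of miR-24-2# overlapped the 20.0 and 20.1 of miR-93#, while miR-322# lay below both of the latter. Levels of different assays have no common scale, because primers differ in efficiency.

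The minor strand was read later than its major strand in most hairpins. Both strands were detected in the 4 samples in 76 pairs of a minor and a major strand assay. The minor strand had the higher Ct in every sample in 62, the lower Ct in every sample in 8, and a mixed order in 6. Some pairs overlap: miR-376a and miR-125b enter with 2 minor strand assays each. The major strand assays of miR-24, miR-218 and miR-29b each serve 2 minor strands. The median distance was 5.63 cycles, with quartiles of 2.70 and 7.91, and 14 minor strands came more than 10 cycles later. The widest was miR-218-2#, from a hairpin inside a Slit gene, whose Ct exceeded that of miR-218 by 16.6 and 15.8 cycles in room air and by 14.6 and 15.2 in hyperoxia. Across the 76 pairs, the mean Ct values of the strands were related by a Pearson r of 0.0729 and a Spearman rho of 0.0288. This is a description only, since pairs share samples and cards, some share a major strand assay, and they are not replicates. Most strands of a pair were read on different cards with different primer pools, so 17 pairs with both assays on the second card were also set side by side. Of the 12 of these detected in all 4 samples, the minor strand came later in all 4 in 8 and earlier in all 4 in 2, with a median distance of 3.37 cycles.

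**Figure D2:**
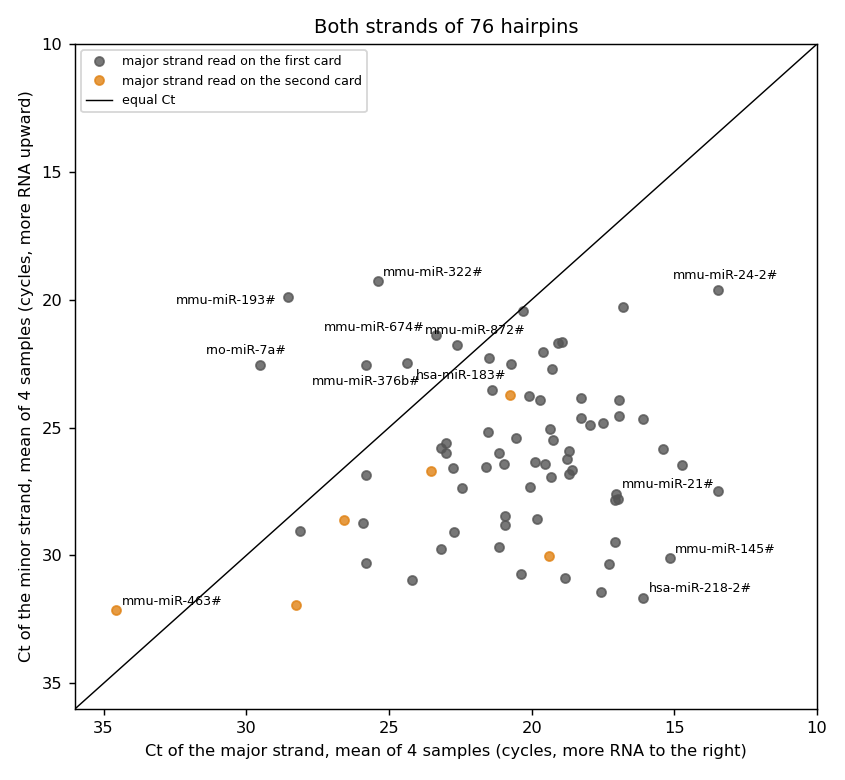
Mean Ct over room air 2 and 3 and hyperoxia 1 and 3 of the minor strand (vertical axis, reversed) against the major strand (horizontal axis, reversed) of 76 assay pairs. Grey points had the major strand on the first card and orange points on the second. Most points lie below the line of equal Ct, and the 8 hairpins whose minor strand was earlier in every sample carry their names, together with 4 others named in the text.

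The 8 hairpins with the minor strand earlier in every sample were miR-322, miR-193, miR-872, miR-183, miR-674, miR-463, miR-376b and miR-7a. Hairpins whose major strand lacked a detected value in some of these samples, among them miR-881 and miR-879, could not enter this list. rno-miR-7a#, the partner of the neuroendocrine miR-7a, had Ct values of 22.0 and 22.5 in room air, against 22.7 and 23.0 in hyperoxia, 6.45 to 7.42 cycles before miR-7a. miR-376b#, from the imprinted Dlk1-Dio3 region, came 2.81 to 4.13 cycles before miR-376b. miR-183#, from a cluster known in sensory epithelia, came 1.72 to 2.30 cycles before miR-183. For miR-322 the distance depended on which assay of the major strand was read. Against the first-card well of miR-322 the minor strand was 8.94 and 8.47 cycles earlier in room air and 6.56 and 0.49 cycles earlier in hyperoxia, while against the second-card well it was 1.03, 0.929, 1.09 and 1.29 cycles earlier. The direction was the same with both wells, and the size was not. miR-193#, miR-872# and miR-463# had scattered readings in hyperoxia 3, and without it miR-193# lay 2.83 to 7.73 cycles before miR-193. The major strand miR-463 was read at 34.3 to 34.8 in these samples, just under the detection limit of 35. A detected miR-463# could therefore hardly come later.

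For the comparison of groups, each card was centred on the mean of its complete miRNA assays (249 on the second card, 81 of them minor strands). That mean minus the Ct is a log2 relative abundance in cycles. The second-card mean of hyperoxia 3 includes the scattered readings, among them 5.08 for miR-17# and 8.94 for miR-193#. Differences are hyperoxia minus room air, tested with limma over all 551 assays detected in 2 samples or more of each group, and called at a Benjamini-Hochberg adjusted p under 0.05. In these bulk samples fewer cells of a type and less RNA per cell cannot be told apart. Of the 81 minor strands tested, limma called 0 higher and 0 lower (background 0% of 551 assays in each direction), and the smallest adjusted p was 0.333. At an unadjusted p under 0.05, 4 minor strands passed (4.94%), where the background over all assays was 9.07% and over the second card 6.83%. Of these 4, 1 was higher in hyperoxia (background 3.63%) and 3 were lower (background 5.44%). Without hyperoxia 1, 3 minor strands were called (miR-17#, miR-138# and miR-193#), all 3 of them scattered readings of hyperoxia 3. The median difference of the 81 was -0.04 (35 positive, 46 negative), beside -0.12 over all assays tested and -0.11 over the 168 other second-card assays. Within 1 cycle of 0 lay 66 of the 81 (81.5%) and 75% of the 168 others. The groups did not overlap in 13 minor strands with the higher values in hyperoxia and in 14 with the lower, against a background of 12.4% and 16.9% of the 249 second-card assays, beside shares of 16.0% and 17.3%. With 2 samples against 2, a single value cannot reach an exact permutation p under 0.333.

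The sign of small differences rests on the scaling. Scaled to each card's median Ct, the median of all second-card assays was higher by 0.38 and that of the minor strands was 0.33, with 26 negative; with the first card's mean as reference for both cards it was higher by 0.66 and 14 minor strands were negative. Scaled to the control RNAs the second-card median shifted by -0.43 and 61 minor strands were negative. Values below are relative to the card mean, and signs under 0.7 in size can turn with that choice.

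miR-21#, the partner of the injury-linked miR-21, was the only minor strand with an unadjusted p under 0.05 and a positive difference. Its Ct was 29.4 and 28.6 in room air 2 and 3, and 25.2 and 27.1 in hyperoxia 1 and 3. Both hyperoxia samples were earlier than both room air samples. The shared reading was 25.2. The miR-21# well lies in row P, where hyperoxia 1 had 6 of 15 wells more than 3 cycles from the other samples. The log2 difference, after scaling to the card mean, was 3.01 ± 0.78 (SE, 2 against 2; adjusted p = 0.446, limma), or 8.05-fold at full PCR efficiency. Its major strand miR-21 had Ct values of 17.5, 17.4 and 17.3 in room air, against 16.4, 16.1 and 17.0 in hyperoxia, again without overlap, and a difference of 1.61 ± 0.33 (adjusted p = 0.314, limma). The change of the minor strand over that of the major, tested per sample in limma on all 112 pairs with both strands read, was 1.56 ± 0.62 (adjusted p = 0.927). It was 0.046 with the shared reading kept in room air, 0.40 with it kept in both groups, with and without the replicate block, and 0.91 without hyperoxia 1.

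miR-25#, from the miR-106b to miR-25 cluster, had the smallest p of the minor strands. Its Ct was 25.6 and 24.7 in room air 2 and 3, and 27.7 and 28.2 in hyperoxia 1 and 3. Both hyperoxia samples were later, and the shared reading was 28.1. The log2 difference was -2.57 ± 0.45 (SE, 2 against 2; adjusted p = 0.333, limma), a level 5.94-fold lower. The major strand miR-25 had 20.7, 21.3 and 21.0 in room air, against 21.9, 15.2 and 22.3 in hyperoxia, and its difference of 1.92 ± 1.73 rested on the reading of 15.2 in hyperoxia 2. In the 4 samples with both strands, before scaling, the minor strand came 4.34 and 3.74 cycles after the major in room air and 5.74 and 5.88 after it in hyperoxia, without overlap. With each card centred on its own mean, the change between groups was -2.43 ± 0.47. It was the only one of the 76 minor strand pairs with an unadjusted p under 0.05 (background 1.79% of 112 pairs). It did not pass after adjustment (adjusted p = 0.435, limma). The sequence of both strands is printed above.

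miR-145#, the partner of the smooth muscle miR-145, had Ct values of 28.9 and 29.1 in room air, against 30.7 and 31.7 in hyperoxia. The groups did not overlap, and the shared reading of 29.8 lay between them. The log2 difference was -2.001 ± 0.51 (adjusted p = 0.446, limma), against -0.68 ± 0.23 for miR-145. Among the other smooth muscle and mesenchymal markers on the first card, the differences were -0.29 for miR-143, 0.24 for miR-199a-3p and 0.49 for miR-214, none of them called; their part in the value of miR-145# was not tested. miR-300#, from the Dlk1-Dio3 region, had 31.5 and 31.2 in room air, against 32.4 and 32.7 in hyperoxia, with a shared reading of 33.2. Its difference was -1.08 ± 0.33 (adjusted p = 0.506, limma), and that of miR-300, read on the same card, was -0.24 ± 0.39.

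**Figure D3:**
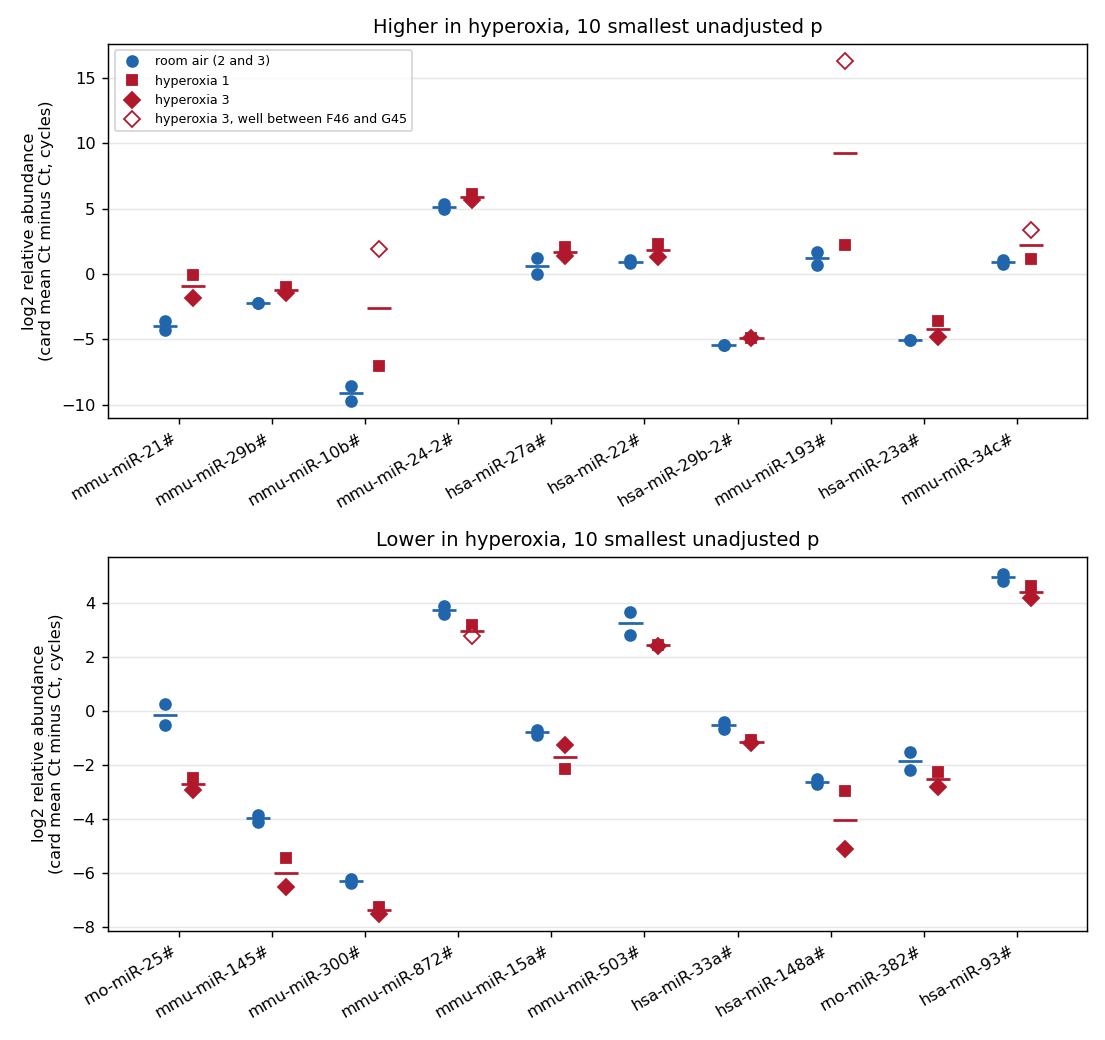
Log2 relative abundance in cycles of the 10 minor strands with the smallest unadjusted p in each direction: room air 2 and 3 (blue circles), hyperoxia 1 (red squares) and hyperoxia 3 (red diamonds, open for scattered wells), with horizontal bars at the group means. In miR-10b# and miR-193# the group mean is carried by the open diamond. Both hyperoxia samples lie on one side of room air in these strands as well as in miR-21#, miR-25# and miR-145#, all of them chosen by small p.

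The other minor strands of the 10 with the smallest p and positive differences were miR-29b#, miR-10b#, miR-24-2#, miR-27a#, miR-22#, miR-29b-2#, miR-193#, miR-23a# and miR-34c#. miR-29b# had Ct values of 27.3 and 27.2 in room air, against 26.2 and 26.7 in hyperoxia, a difference of 0.99 ± 0.36. Both hyperoxia samples were earlier than both room air samples. miR-10b#, miR-193# and miR-34c# held scattered readings in hyperoxia 3, of 23.4, 8.94 and 21.9, so their differences of 6.56, 8.05 and 1.30 are listed without weight. Those with negative differences were miR-872# (with a scattered reading of 22.5), miR-15a#, miR-503#, miR-33a#, miR-148a#, miR-382# and miR-93#, from -0.56 ± 0.36 for miR-93# to -1.41 ± 0.86 for miR-148a#. miR-148a# owed its size to hyperoxia 3, at a Ct of 30.3, where the other 3 samples had 27.5 to 28.1.

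By hairpin group, the minor strands of the miR-29 family, which targets collagen messengers, were all positive (4 of 4 tested of 5 assays, median 0.52, 0 called; 1 of the 4 was negative with the control RNAs as reference). Their values ran from 0.37 ± 0.41 for miR-29c# to 0.99 for miR-29b#, and the median of their major strands was 0.98. In the miR-23, miR-24 and miR-27 clusters 4 of 5 were positive (median 0.71, 0 called; 3 of 5 with the control RNAs). miR-27a# had 23.8 and 24.9 in room air, against 23.1 and 23.9 in hyperoxia, which overlapped in Ct, and rno-miR-24-1# differed by -1.34 ± 1.46 where miR-24-2#, of the same seed, differed by 0.71 ± 0.39. The minor strands of miR-200a, miR-200b, miR-200c, miR-141, miR-183 and miR-203, which mark epithelium, had a median of 0.16 (5 of 6 positive; 1 of 6 with the control RNAs, and 3 of 6 unscaled or by quantiles), and that of miR-203# is a scattered reading.

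In the miR-15 family, known for restraining the cell cycle, 5 of 5 minor strands were negative (median -0.36, 0 called), but 3 of 5 were positive both with the card median and with the first card as reference. miR-15a# had 25.8 and 25.9 in room air, against 27.3 and 26.5 in hyperoxia, a difference of -0.90 ± 0.46 beside 0.02 ± 0.27 for miR-15a. miR-503# differed by -0.82 ± 0.44 and miR-503 by -1.60 ± 0.32. From the Dlk1-Dio3 region, an imprinted locus with many miRNAs, 8 of 8 assays were negative (median -0.38, from -1.08 to -0.12, 0 called). Of all second-card assays 56.6% were negative. A mouse and a human assay of the same strand, miR-376a#, both count among the 8. With the card median 4 of 8 were positive, and with the first card 6 of 8. In the miR-17 to miR-92a cluster and its paralogs, known for driving proliferation, 6 of 7 were negative (median -0.04, 0 called) with the scattered miR-17# as the exception, and 5 of 7 were positive with the card median and 6 of 7 with the first card. let-7 minor strands, partners of a family that rises with differentiation, were negative in 5 of 7 (median -0.17, 0 called; 3 of 7 with the card median and 2 of 7 with the first card), from -0.99 ± 0.69 for let-7c-1# to 0.63 ± 0.44 for let-7i#. In the miR-99, miR-100 and miR-125 families 3 of 4 were negative (median -0.32), among neural miRNAs 3 of 3 (median -0.35) and in the miR-130, miR-301, miR-148 and miR-152 families 2 of 2 (median -0.71), 0 called in each, while 4, 3 and 1 of them were positive with the first card. The miR-99, miR-100 and miR-125 count holds miR-125b# as a mouse and as a rat assay, both negative. The neural count holds 2 miR-7 assays, rno-miR-7a# (-0.46) and rno-miR-7# (-0.35), beside miR-9# (-0.04). Both minor strands of the miR-30 family were positive (median 0.32; negative with the control RNAs), as were those of the injury group, miR-21# and miR-146b# (0.62 ± 1.03). The smooth muscle group and the miR-26 and miR-101 families each had 1 positive and 1 negative minor strand, with medians of -0.92 and -0.14. Of the miR-34 group only the scattered miR-34c# was tested, and the Hox cluster group held the scattered miR-10b# and miR-196a#, whose Ct of 27.9 and 32.5 in room air, against 33.9 and 20.2 in hyperoxia had no order by group. The endothelial, erythroid and miR-192 groups held no minor strand assay, and those of the leukocyte, striated muscle and miR-290 groups were not tested for want of detected samples.

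Between the strands of a pair, limma called 0 of the 76 differences in change (background 0% of 112 pairs), and 1 had an unadjusted p under 0.05. Without hyperoxia 1, 8 were called, 6 of them scattered readings of hyperoxia 3 and the others miR-322 and miR-196a. Their median was -0.02, with 37 positive and 39 negative, beside -0.16 over all 112, and 61 of 76 lay within 1 cycle of 0. After miR-25#, the hairpins with the smallest p were miR-322, miR-21, miR-145, miR-10b, miR-193, miR-300, miR-28, let-7d and miR-17. miR-10b, miR-193, miR-17 and miR-28 involve scattered readings. The value for miR-322, -5.84 ± 2.20 against the first-card well, came from that well, whose Ct was 28.7, 28.2 and 27.3 in room air, against 25.9, 20.0 and 20.1 in hyperoxia; miR-322# itself differed by -0.20 ± 0.34, and against the second-card well of miR-322 the strand difference was 0.21 ± 0.40. let-7d# differed by -1.06 ± 0.66 against its major strand, and miR-28#, with a scattered reading of 23.6, by -0.96 ± 0.59.

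**Figure D4:**
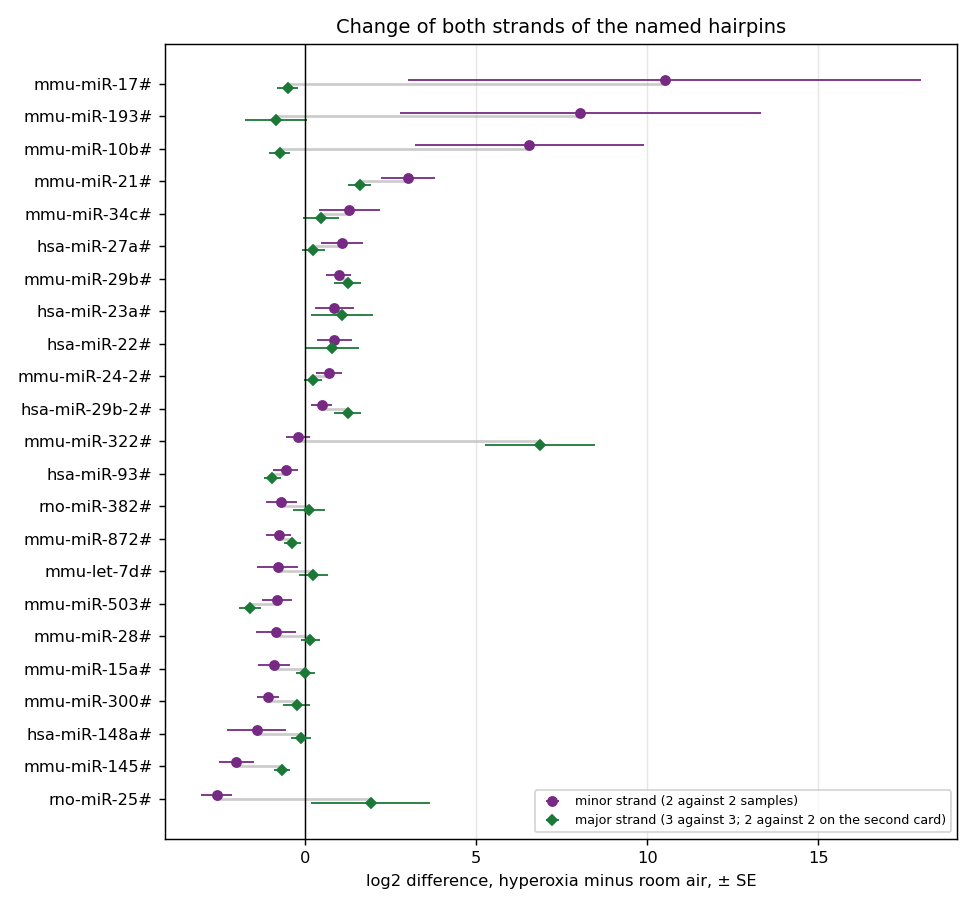
Log2 difference, hyperoxia minus room air, ± SE, of the minor strand (purple circles) and the major strand (green diamonds) of the named hairpins that had both strands tested, ordered by the minor strand. Both strands of miR-21, miR-29b and miR-503 lie on the same side of 0. miR-25 has them on opposite sides, as do others such as let-7d and miR-382. The positive value of the major strand miR-25 rests on the reading of 15.2 in hyperoxia 2, a sample without a minor strand value. The widest bars belong to miR-17#, miR-193# and miR-10b#, the scattered readings.

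Of the 28 minor strands not tested, miR-295# was the only one detected in both samples of one group and neither of the other. Its Ct was 30.1 and 30.9 in room air and 40 in both hyperoxia samples, with a shared reading of 30.7, and its major strand miR-295, of an embryonic stem cell cluster, was read at 27.6 to 29.6 in room air and 27.8 to 30.3 in hyperoxia. The 5 minor strands miR-191#, miR-150#, let-7b#, rno-miR-135a# and miR-10a# were detected in both room air samples and hyperoxia 1 and not in hyperoxia 3, where all but miR-10a# (35.2) were at 40; miR-191# lies in a scattered well. let-7b# went from 25.8 and 24.9 in room air and 24.5 in hyperoxia 1 to 40 in hyperoxia 3.

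Where 2 assays read 1 minor strand, they did not always return the same level. The mouse and human assays of miR-376a# had room air values of 25.9 and 24.7, and 26.1 and 25.4, with differences of -0.40 ± 0.60 and -0.36 ± 0.52. The mouse and rat assays of miR-125b# had 25.4 and 26.0, and 25.8 and 27.1, with differences of -0.25 ± 0.43 and -0.55 ± 0.69. The mouse assay of miR-20a# had 24.8 and 24.0 in room air, against 24.1 and 25.2 in hyperoxia, while the rat assay of that name was at 40 in all 4 samples. The rat assay miR-29b-1# is assigned to the same strand as the mouse assay miR-29b#, and it was at 40 and 35.1 in room air, against 34.9 and 35.1 in hyperoxia, where the mouse assay had 26.2 to 27.3. The positive difference of miR-29b# therefore rests on the mouse assay alone.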

How the data were processed

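The authors deposited 1 table of Ct values per well and sample, with no detection threshold or instrument given in the sources used here. Per the labels' protocols, cDNA was made with Megaplex primer pools A and B and went through 12 pre-amplification cycles. Samples were grouped by their titles into 3 room air and 3 hyperoxia samples. Computed here with R 4.3.3 and limma 3.58.1 (lmFit and eBayes, two-sided; prior degrees of freedom 1.62): a Ct of 35 or more was set missing, each card was centred on the mean Ct of assays detected in all samples used (282 on the first card, 249 on the second), and assays with 2 detected samples per group were tested; control RNAs and the plant assay stayed out. The second-card mean Ct was 0.19 cycles later in hyperoxia. Strand differences were fitted on the difference between both strands per sample. The fits were tested on simulated data.

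The minor strand assays, the 22 hairpin groups and the tests were chosen with earlier results of these data known. Strand names were assigned from miRBase naming and matched to RefSeq by name. Named assays are the 10 smallest unadjusted p in each direction, the 10 smallest of the strand difference, the 10 lowest room air Ct, those detected in 1 group only, those with the minor strand earlier in every sample, those read by several assays, examples of the hairpin groups, and the major strand of each; further untested assays were named after their values were seen. Whether equal replicate numbers pair samples was checked on the first card: the deviations of same-numbered samples correlated by -0.34, -0.23 and -0.18. Samples were treated as unpaired. The check cannot settle this, because differently numbered samples were not compared. Alternatives covered the detection threshold, scaling, filter, shared reading, prior, row G, assay numbers and each sample left out.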

Additional observations from a re-analysis of the deposited data

Results flagged for a closer look

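rno-miR-20a#, the rat assay of the miR-20a minor strand, had a Ct of 31.861 in the shared second-card reading, which the comparisons do not use, and 40 in room air 2 and 3 and hyperoxia 1 and 3. To which sample this signal belongs was not given in the sources used here.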

How the results depend on the processing

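Minor strand values were recomputed under 24 alternatives, and 2 more were added after seeing the data (hyperoxia 3 left out in wells F46 to G45, and the second-card assay of the major strand). With at least 1 sample per group and 3 in all, limma called 1 minor strand higher and 1 strand difference. Leaving out 1 sample at a time gave 0 to 3 minor strands called higher and 0 to 8 strand differences; the 3 and the 8 came without hyperoxia replicate 1, which leaves hyperoxia 3 as the lone sample, assumed to vary like the other group, and all 3 and 6 of the 8 were scattered wells of hyperoxia 3, as was the 1 under the wider filter (miR-138#). The median of the minor strands was 0.62 with the first card reference, the median strand difference was 0.59 with that reference and with no normalization, and the hairpins with the minor strand ahead relative to each card were 12 as reported and 7 with quantile normalization. Signs reversed for miR-33a# (0.065) and miR-93# (0.11) with the first card reference, and for the strand difference of let-7d# (0.15) with the shared reading kept in hyperoxia. By assay number in place of name they reversed for miR-33a# (0.61), miR-148a# (0.47), rno-miR-382# (1.05) and the strand difference of miR-300# (0.16), and that of miR-322# was 0.21 with the second-card assay. The cause was not tested. With the replicate number as a block, which needs the shared reading in both samples, 0 minor strands were called, and miR-21# stood at 2.01. miR-25#, miR-21# and miR-145# kept their direction in each of the 24 alternatives that gave them a value (naming by assay number gave none), at -2.998 to -1.63, 1.71 to 3.85 and -2.65 to -1.33. The number of samples, 2 against 2, limits all of these values, and Ct values near 35 hold few molecules.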
